A study of Gallus gallus with 9 samples.

Results

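Interferon-stimulated genes are the antiviral genes that cells switch on when interferon binds its receptor. The 9 genes described here are MX1, OASL, EIF2AK2, RSAD2, IFIT5, IFI6, ZNFX1, IRF1 and IRF7, and they were followed in broiler liver as every probe set whose single gene symbol in the platform annotation is one of these names. That rule found all 9 genes on 11 probe sets, out of 13009 gene symbols on the array. The livers came from 9 ROSS308 broilers, commercial meat chickens aged 35 days. Se-yeast birds (n = 5) ate a standard diet with selenized yeast (Sel-Plex) from 1 day of age, at a supplement of 0.5 mg selenium for each kg of feed. Control birds (n = 4) ate the standard diet alone, and a further control sample had been left out by the authors for quality. All birds were fed freely for 35 days, and neither infection nor vaccination is mentioned in the labels. Each liver was measured on its own Affymetrix chicken array, from total RNA of the whole tissue, so fewer cells of a type and less RNA per cell cannot be told apart.

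Interferons signal through paired receptors and Janus kinases to STAT and IRF transcription factors, which bind the promoters of the stimulated genes. The products act at different points: some sense viral RNA, some block translation or viral replication, and some are transcription factors that amplify the response. Uninfected tissue keeps a low tonic level of many of them, and liver holds hepatocytes, Kupffer cells, lymphocytes and blood, all of which can carry such transcripts.

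No difference between diets was found in the median signal or the GAPDH quality ratio of the arrays, though 9 arrays cannot show that they were alike. The processing had set every array to nearly the same mean signal, so a likeness in scale was partly fixed in advance. The median signal of the 9 arrays ranged from 100.8 to 125 and averaged 113 in Se-yeast and 108 in control arrays (exact permutation p = 0.429, two-sided). The GAPDH 3′/5′ quality ratio averaged 0.805 ± 0.0467 in Se-yeast arrays and 0.806 ± 0.0295 in control arrays (SD, n = 5 and 4; exact permutation p = 0.976). Hepatocyte markers were bright in every liver, with the plasma glycoprotein AHSG at 48199 to 76113 in Se-yeast and 38272 to 48989 in control birds. Se-yeast replicate 1 stood apart in HINTW, a gene of the female W chromosome, at 16428 against 6.14 to 19.5 in the other 8 birds. Differences between diets without that bird are given below for all members except RSAD2. Correlations between birds and the fits on erythrocyte markers were not repeated without it.

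The comparison of the diets asked whether the selenium supplement shifts liver transcripts. None of the 9 genes passed the threshold, although 8 of 9 had a higher mean in Se-yeast livers. Differences are given as Se-yeast minus control on the log2(signal + 16) scale, where 16 was added to damp the noise of dim signals, and a probe set was tested when its mean level reached the 40th percentile, a signal of 64.7. Of the 11 probe sets 10 were tested. All 10 had a limma adjusted p of 0.999 over 23063 probe sets, where 6 probe sets (0.0260%) passed at 0.05. The median difference over the 9 genes, each on its brightest probe set, was 0.29, against 0.02 over all tested probe sets, of which 53.1% were higher. The 9 genes were chosen with earlier results of these data known, so this contrast and the count of 8 are a description only. RSAD2, counted among the 8, passed the signal filter only through its Se-yeast birds. Hepatocyte markers lay higher in the same livers, at a median of 0.31 over 10 of 10 tested genes, and macrophage markers at 0.18, with 10 of 11 higher. The part of either in the members' values was not tested. The self-test on simulated data recovered 35.7% of changes of 1 on the log2 scale and 0% of changes of 0.5. Differences of 1 or less were thus mostly not detected there with this number of arrays. The changed probe sets were drawn at random from all tested ones, so these shares are averages over quiet and noisy probe sets. Noise was drawn independently for each probe set, so differences that genes share between birds were left out.

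**Figure D1:**
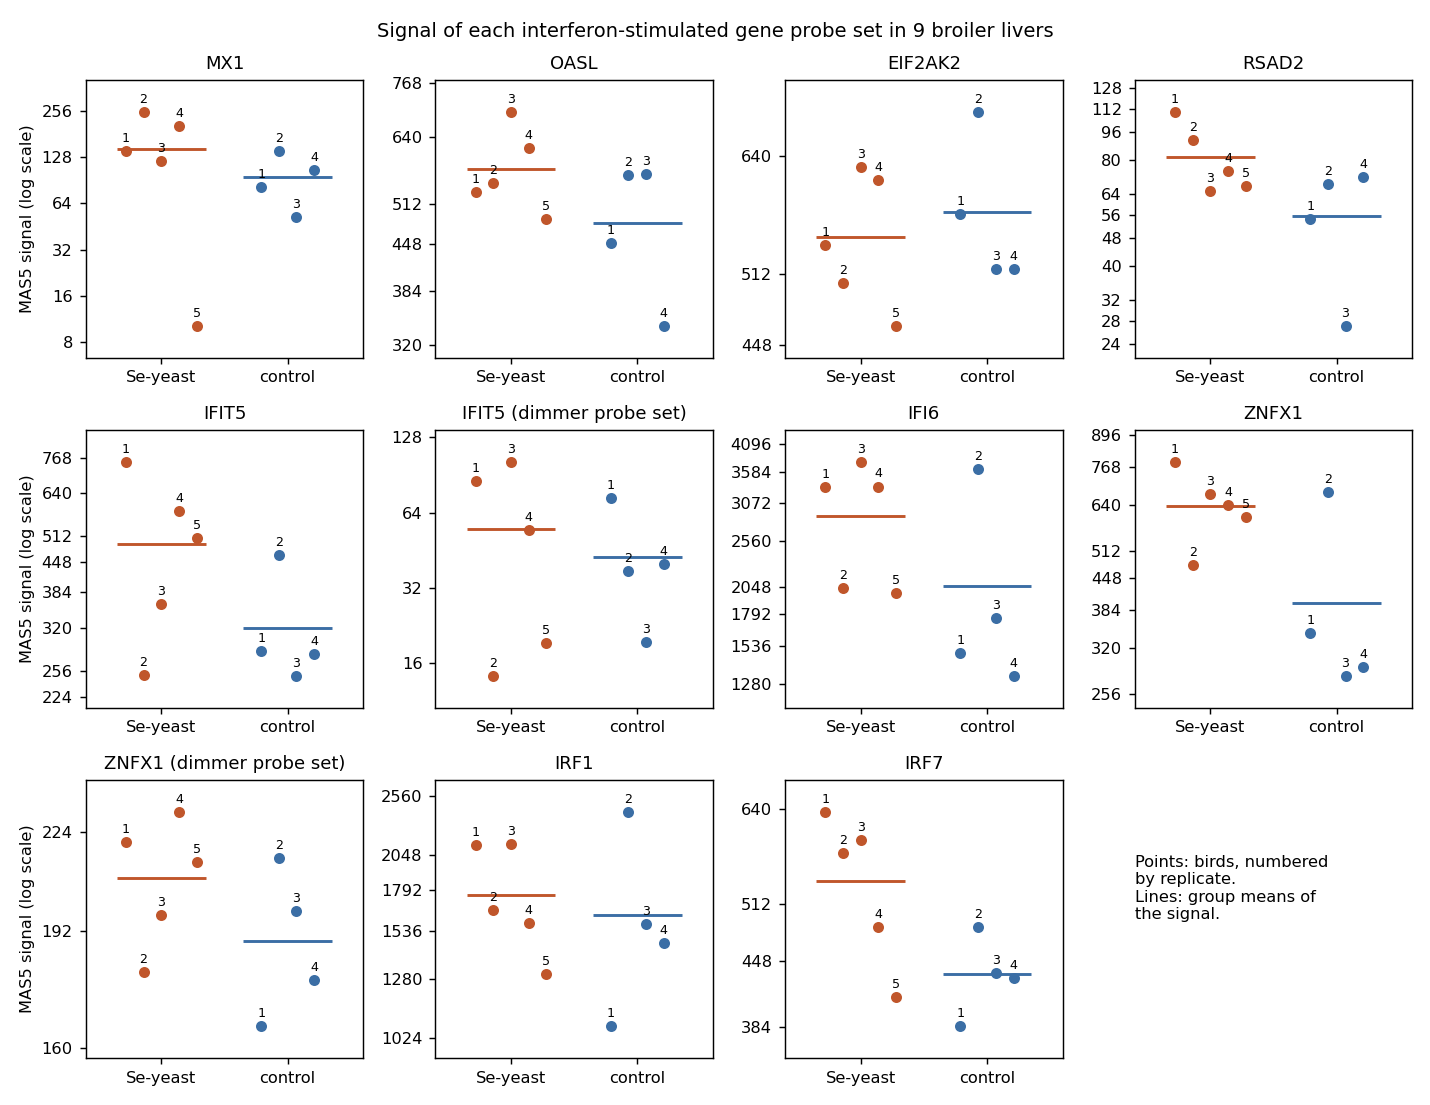
MAS5 signal (log axis) of the 11 probe sets in 5 Se-yeast and 4 control livers, with birds numbered by replicate and lines at the group means of the signal. Control replicate 2 is the highest control bird in 7 of the 9 genes and Se-yeast replicate 5 is the lowest Se-yeast bird in 6. Se-yeast replicates 1 and 3 are each the highest Se-yeast bird in 4, and the groups overlap in all panels.

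ZNFX1, a helicase that senses double-stranded viral RNA at mitochondria in mammals, had the largest difference of the 9. Its brighter probe set read 786, 477, 674, 639 and 602 in Se-yeast replicates 1 to 5, against 344, 679, 280.1 and 292 in control replicates 1 to 4. All Se-yeast birds lay above 3 of the control birds, and control replicate 2 lay among them. The means were 636 ± 112 and 399 ± 189 (SD, n = 5 and 4), a difference of 0.73 (95% interval 0.19 to 1.26; limma unadjusted p = 0.0114, adjusted p = 0.999). At an unadjusted p under 0.05, 4.67% of tested probe sets were counted, so 1 of 9 genes at that level is read against that share. The dimmer ZNFX1 probe set, of a design that can also read related transcripts, gave 220.4, 180.0, 197, 231 and 214 in Se-yeast birds and 166, 215, 198 and 178 in control birds. There the difference was 0.13 (-0.24 to 0.51), so the size of the ZNFX1 difference depended on the probe set.

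IFI6, listed by RefSeq also as ISG12-2, is a small membrane protein induced by type I interferon. Its signal was 3323, 2039, 3757, 3334 and 1987 in Se-yeast birds, against 1487, 3631, 1759 and 1331 in control birds. Se-yeast replicates 1, 3 and 4 and control replicate 2 formed a high group, Se-yeast replicates 2 and 5 lay below it, and the other control birds lay lowest. The difference was 0.56 (-0.06 to 1.18; limma unadjusted p = 0.0734). IFIT5 binds the triphosphate end of viral RNA. Its brighter probe set gave 752, 251, 362, 583 and 508 in Se-yeast birds, against 284, 465, 249.6 and 279 in control birds. Its difference was 0.54 (-0.08 to 1.17), or 0.37 without Se-yeast replicate 1, and Se-yeast replicate 2 lay at the bottom of the control range. The other IFIT5 probe set lay below the signal filter and was not tested, at 14.3 to 102 in Se-yeast and 19.5 to 73.1 in control birds.

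RSAD2 (viperin) makes a modified nucleotide that ends viral RNA chains early. It was close to the filter level, with 109.7, 91.1, 65.5, 74.3 and 67.7 in Se-yeast birds and 54.6, 68.4, 27.1 and 71.8 in control birds. Its mean log2 level was 6.59 in Se-yeast and 6.11 in control birds, against a filter level of 6.33. RSAD2 thus passed the filter only through the Se-yeast birds, and its difference is given as a description only. The difference of 0.48 (-0.20 to 1.16) leaned on control replicate 3, the lowest bird, and was 0.26 without it. MX1, a dynamin-like GTPase that hinders viral replication in mammals, was dim too. It read 141, 252, 120.2, 204 and 10.2 in Se-yeast birds, against 81.3, 139, 52.1 and 105 in control birds. Se-yeast replicate 5 was the lowest of all 9 birds, and the spread was 24.6-fold from lowest to highest, with a within-group SD of 1.06 that exceeded those of 98.9% of tested probe sets. The difference of 0.27 had an interval of -0.96 to 1.50. It was 0.83 without Se-yeast replicate 5 and -0.00 without Se-yeast replicate 2.

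OASL belongs to the oligoadenylate synthetases, whose products activate the nuclease RNase L. It gave 533, 549, 697, 617 and 487 in Se-yeast birds, against 449.8, 565, 566 and 342 in control birds, a difference of 0.27 (-0.12 to 0.67). Without control replicate 4, the lowest bird, it was 0.12. EIF2AK2 (PKR), the kinase that halts translation on sensing double-stranded RNA, was the only member with a negative difference. Its signals were 540.4, 503, 627, 612 and 464 in Se-yeast birds and 573, 696, 517 and 517 in control birds, at -0.06 (-0.40 to 0.27). It turned to 0.03 without control replicate 2.

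Among the transcription factors, IRF7 drives type I interferon genes and IRF1 drives targets of both interferon types. IRF7 read 635, 578, 594, 486 and 413 in Se-yeast birds, against 385, 486, 436 and 431 in control birds. Se-yeast replicates 1, 2 and 3 lay above every control bird, and replicates 4 and 5 lay within the control range. The difference was 0.29 (-0.06 to 0.65; limma unadjusted p = 0.0971), and 0.23 without Se-yeast replicate 1. IRF1 read 2129, 1664, 2135, 1584 and 1305 in Se-yeast birds, against 1074, 2409.9, 1580.5 and 1471 in control birds, which held both the highest and the lowest of the 9 values. The difference was 0.14 (-0.33 to 0.62), which turned to -0.04 when control replicate 1 was left out. Leaving out Se-yeast replicate 1 gave 0.07.

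**Figure D2:**
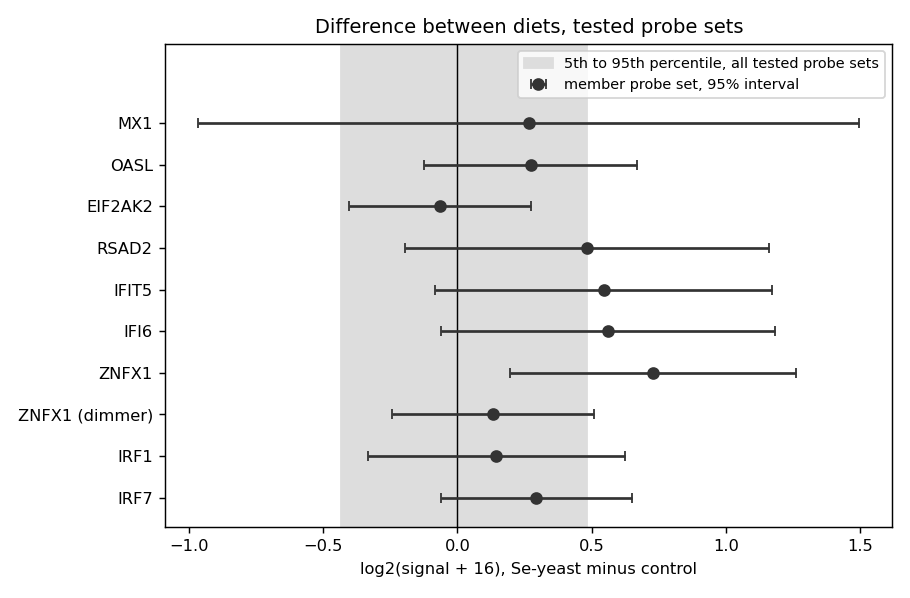
Difference between diets (Se-yeast minus control, log2(signal + 16)) for the 10 tested probe sets of the 9 genes, with 95% intervals from limma, and a grey band from the 5th to the 95th percentile of all tested probe sets (-0.43 to 0.48). The brighter ZNFX1 probe set is the only one whose interval lies above 0, and it and the probe sets of IFI6, IFIT5 and RSAD2 lie at or beyond the upper edge of the band. RSAD2 passed the signal filter only through its Se-yeast birds.

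The control birds were not alike in these genes. Control replicate 2 was the highest control bird in 7 of 9 genes, whereas it was highest in 24.1% of all genes, and it was lowest in none of the 9. The mean log2 level of the 9 genes was 9.32, 8.99, 9.16, 9.20 and 8.60 in Se-yeast birds, against 8.54, 9.19, 8.48 and 8.57 in control birds. The highest was Se-yeast replicate 1, the bird that stood apart in HINTW. Control replicate 2 lay among the Se-yeast birds and Se-yeast replicate 5 beside the control birds. Control replicate 2 was singled out on the members' own values, so differences without it are larger by that choice and are given only as a description. Without control replicate 2 the difference was 1.01 for the brighter ZNFX1 probe set and 0.19 for the dimmer one. There IFI6 stood at 0.87, IFIT5 at 0.73 and IRF1 at 0.35. The groups still overlapped without that bird in MX1, OASL, EIF2AK2, RSAD2, IFIT5, IRF1, IRF7 and the dimmer ZNFX1 probe set. They no longer overlapped in IFI6 and the brighter ZNFX1 probe set, and the share over all probe sets is not given for that setting. No member passed there either, against 0.0173% of tested probe sets, with the lowest limma adjusted p at 0.377 for ZNFX1. With all 9 birds no member had every Se-yeast bird above every control bird, against 0.889% of all tested probe sets.

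Birds of the same diet differed from each other, and the members partly shared these differences. After the diet-group means were removed, 34 of the 36 pairs of members had a positive Pearson r over the 9 birds, with a median of 0.42, against 50.3% of all gene pairs and a median of 0.00. An r of at least 0.7 was reached by 7 of 36 pairs (19.4%), against 3.69% of all pairs. These values describe 9 birds, and all genes of a bird share 1 array and its scaling. The birds farthest from their group means were control replicate 2 and Se-yeast replicate 5, where the members' standardised deviations averaged 1.30 and -0.99. Neither these r nor those of other genes with the members' mean deviation were computed again without them. How far the shared differences rest on these birds was thus not tested. The tightest pairs were IFI6 with EIF2AK2 at 0.89, IFI6 with ZNFX1 at 0.86, and IRF1 with IRF7 and with IFI6 at 0.83 each. IFI6 was thus in 3 of the 4 tightest pairs. RSAD2, near the filter level, reached at most 0.48, with MX1. It had an r of -0.50 with OASL, and MX1 had one of -0.08 with IFIT5, the only negative pairs. CMPK2, the coding gene next to RSAD2 in the RefSeq annotation of GRCg7b and a nucleotide kinase of the same antiviral route, was looked at after its values were seen. It read 223, 117, 223, 264 and 115 in Se-yeast birds and 208, 209, 31.1 and 150.4 in control birds, lowest in control replicate 3 as RSAD2 was, with an r of 0.67 with RSAD2.

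**Figure D3:**
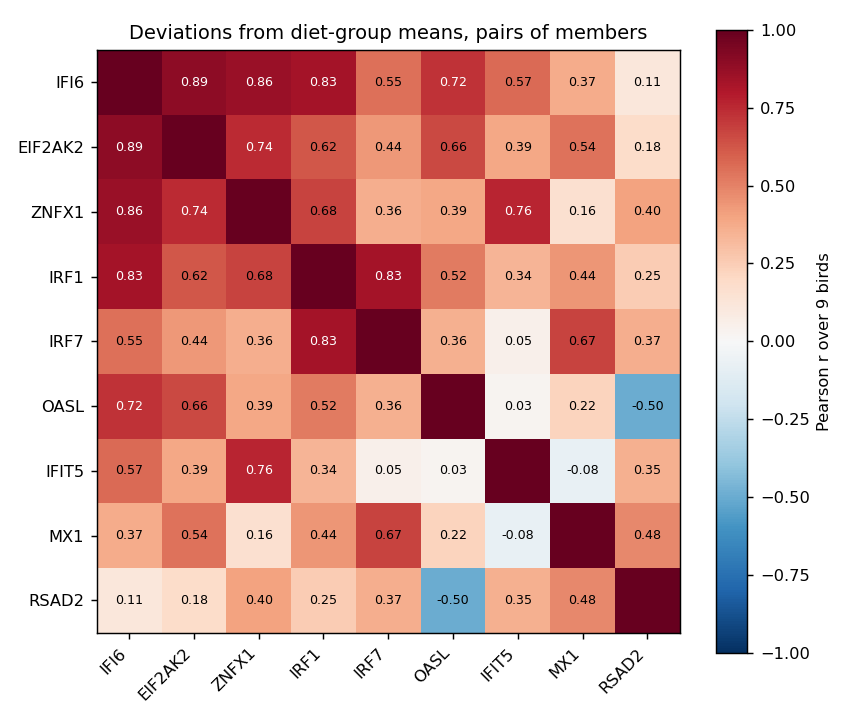
Pearson r between pairs of the 9 genes over 9 birds, computed on log2(signal + 16) after removing diet-group means. The block of IFI6, EIF2AK2, ZNFX1 and IRF1 holds r of 0.62 to 0.89, and the only negative values are -0.50 and -0.08.

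None of the 10 genes whose deviations most resembled the members' mean deviation was on the interferon pathway lists. In descending order they were LOC416924 (r = 0.96), EDARADD (0.94), SLC25A37 (0.93), FURIN (0.93), ANK1 (0.92), HM13 (0.92), ADM (0.91), PCMT1 (0.91), CSTA (0.90) and CARF (0.89), out of 10373 genes, of which 74 (0.713%) reached 0.8. ANK1 encodes the ankyrin of the red cell membrane skeleton, and SLC25A37 (mitoferrin) brings iron into mitochondria for heme synthesis in erythroid cells. FURIN is a proprotein convertase, ADM a vasodilator peptide, EDARADD an adaptor of ectodysplasin receptor signalling and PCMT1 a protein repair enzyme. ANK1 read 447, 234, 358, 386 and 259.8 in Se-yeast birds and 264, 698, 320.3 and 272 in control birds, highest in control replicate 2. The median r was 0.12 over 62 other genes on the interferon pathway lists, against 0.01 over all other genes. Of these 62 genes, 1 (1.61%) reached an r of 0.8. That gene was SOCS3, a feedback inhibitor of Janus kinases, at 0.86 (named after its values were seen).

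Markers of erythrocytes, which keep their nucleus in birds, moved with the members from bird to bird. Of 10 listed markers 5 matched the array, 4 were tested and none read 0. Their summed signal ranged from 17447 to 48083 in Se-yeast and from 20382 to 70993 in control birds. HBA1, an alpha globin, read 36432, 13325, 28089, 31808 and 16237 in Se-yeast birds and 16139, 42174, 28553 and 17834 in control birds. HBAD, the other adult alpha-type globin, read 10847, 3715, 8824, 10495 and 4959.6 in Se-yeast birds, against 3887, 27030.4, 9189.9 and 4616 in control birds. Both were highest in control replicate 2 and low in Se-yeast replicates 2 and 5, as IFI6 was within each diet. The band 3 anion exchanger SLC4A1 and the membrane protein EPB42 were also highest in control replicate 2, at 1295 and 493. The 4 markers had an r of 0.82 to 0.89 with the members' mean deviation, against a median of 0.01 over all other genes. The median was -0.02 over 10 hepatocyte markers and 0.21 over 11 macrophage markers. The 3 thrombocyte markers had an r of 0.38 to 0.69, and the 2 heterophil markers one of -0.26 to -0.20. T cell markers ran from -0.35 to 0.56 over 8 genes, and B cell markers from -0.07 to 0.49 over 5.

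The erythrocyte level, the mean log2(signal + 16) of the 4 markers, was set beside the members. None of the 4 passed between diets, and their median difference was -0.12. Over 9 birds, diet not removed, the Pearson r with the erythrocyte level was 0.82 for IRF1, 0.76 for IFI6 and 0.75 for EIF2AK2. It was 0.52 for ZNFX1, 0.50 for IFIT5, 0.48 for OASL, 0.37 for IRF7, 0.29 for MX1 and 0.04 for RSAD2. Control replicates 1 and 2 lay farthest from the median level. Without them these r were 0.68, 0.70 and 0.69, then 0.38, 0.53, 0.53, 0.44, 0.26 and -0.05. The fit below was not repeated without control replicate 2. The level was fitted together with diet over all tested probe sets, a model added after seeing the data. IFI6 had a slope of 0.69 ± 0.10 (SE) per unit of erythrocyte level, with a limma adjusted p of 0.0810, and ranked 8th of 23063 probe sets. Ahead of it came probe sets of HBAD, HBA1 and SLC4A1, genes from which the level is made, an unnamed probe set, and DLD, whose slope was -0.79. Of all tested probe sets 0.0260% passed with a positive and 0.00434% with a negative slope, and no member did. IRF1 had a slope of 0.45 ± 0.12 (SE) and ranked 41. The brighter ZNFX1 probe set had one of 0.48 ± 0.14 and ranked 74, at a limma adjusted p of 0.9998 each. The dimmer ZNFX1 probe set had a slope of 0.15 ± 0.13 (SE) and ranked 5423. All 9 members had a positive slope, from 0.07 for RSAD2 upward, with a median of 0.45. Over all tested probe sets 12039 of 23063 slopes were positive, with a median of 0.01. The level was taken up after its markers were seen to follow the members in these same birds, so the members' slopes and p-values describe that relation and are no independent test of it.

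With the erythrocyte level in the fit, the diet difference of IFI6 was 0.67 ± 0.14 (SE), against 0.56 ± 0.29 without it. That of the brighter ZNFX1 probe set was 0.80 ± 0.18 against 0.73 ± 0.25. The limma adjusted p-values of IFI6 and that ZNFX1 probe set were 0.620 and 0.856, and 0.0130% of tested probe sets passed in that fit. The dimmer ZNFX1 probe set stood at 0.15 ± 0.17 (SE) with the level, against 0.13 without it. IFIT5 stood at 0.61 and IRF1 at 0.21. Because the level was taken up after its markers were seen to follow the members, a smaller SE here is no independent gain in precision. These diet differences are given only as a description. ZNFX1 lies near EPB42 in the RefSeq annotation of GRCg7b, with CCNDBP1 between them. CCNDBP1, looked at after its values were seen, read 2674 to 3612 in Se-yeast and 3028 to 3529 in control birds. It had an r of 0.11 with ZNFX1, where EPB42 had 0.72. CCNDBP1 varied little, with a within-group SD of 0.16 that exceeded those of only 7.32% of tested probe sets, so its low r says little. A part of the shared neighbourhood in these values was not tested. The part of red cells in the members' levels was not tested.

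**Figure D4:**
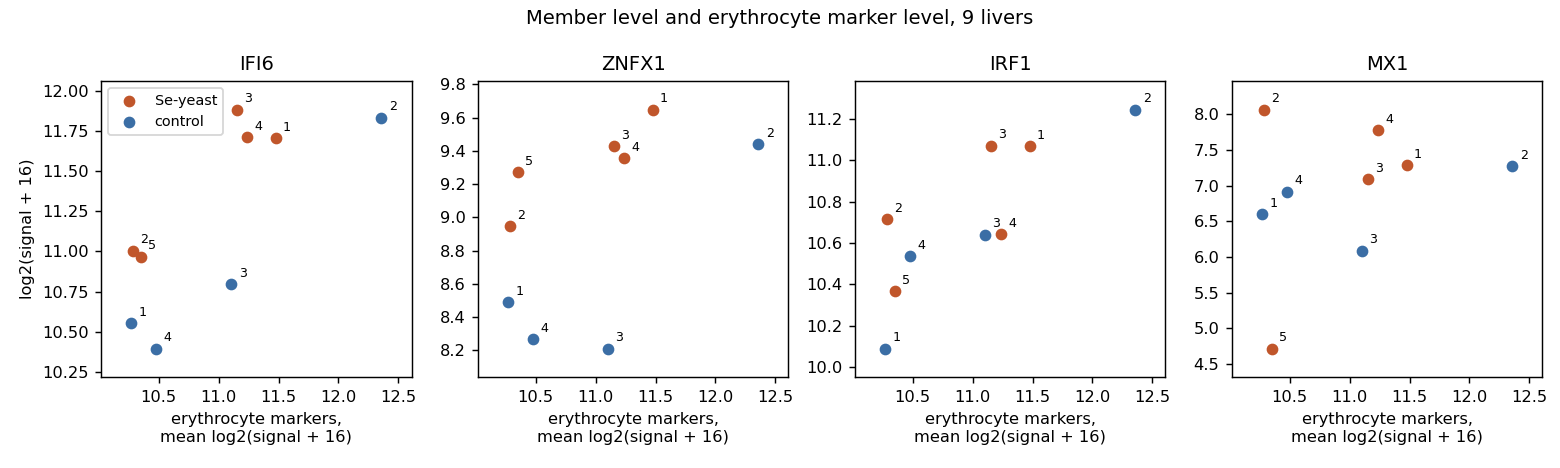
Level of IFI6, ZNFX1, IRF1 and MX1 (log2(signal + 16)) against the mean log2(signal + 16) of 4 erythrocyte markers in the same liver, with 5 Se-yeast and 4 control birds numbered by replicate. IFI6 has a slope of 0.69 ± 0.10 (SE) with diet in the fit, and MX1 one of 0.45 ± 0.43 (SE).

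The rest of the interferon pathway showed no call either. Of the interferons and their receptors, 8 of 12 listed genes were tested, 4 higher and 4 lower, with a median of 0.02. IL10RB, a receptor chain shared by interferon lambda, stood at 0.33. The interferon gamma receptor chains IFNGR1 and IFNGR2 stood at -0.25 and -0.14, the type I receptor chain IFNAR1 at 0.11 and the lambda receptor IFNLR1 at -0.10. Of the signalling genes, 7 of 9 tested were higher, with a median of 0.06. The transcription factor IRF8, which is strong in macrophages, stood at 0.32, the phosphatases PTPN1 and PTPN2 at 0.17 and 0.10, the kinase JAK2 at -0.16 and the repressor IRF2 at -0.07. The limma adjusted p was 0.999 for each gene named in these lists.

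Of the 14 tested sensing genes, 6 had a positive and 8 a negative difference, and the median was -0.05. AZI2, an adaptor of the kinase TBK1, read 778, 434, 573, 583 and 649.8 in Se-yeast birds, against 1063, 913, 916 and 1101 in control birds. Every Se-yeast bird lay below every control bird, as in 0.750% of tested probe sets, at -0.73 (-1.10 to -0.36; limma unadjusted p = 9.61e-04). MYD88, the adaptor of most Toll-like receptors, read 2234, 2634, 2141, 2120.4 and 2319 in Se-yeast birds, against 1898, 1421, 1986 and 1742 in control birds. Here every Se-yeast bird lay above every control bird, as in 0.889% of tested probe sets, at 0.38 (0.09 to 0.68; limma unadjusted p = 0.0149). IKBKE, a kinase that activates IRF7, stood at 0.62 (0.10 to 1.13), TICAM1 at -0.19 and MAVS at -0.22, the adaptors of TLR3 and of the cytosolic RNA sensors. The sensing genes thus ran in both directions, and none passed.

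Of 31 other interferon-stimulated genes tested, 21 had a positive and 10 a negative difference, and the median was 0.07. B2M, the light chain of class I MHC, read 37973, 41391, 34007, 33514 and 29991 in Se-yeast birds, against 30142, 26948, 26353 and 28026 in control birds. The lowest Se-yeast bird lay just below the highest control bird, and the difference was 0.34 (0.09 to 0.59; limma unadjusted p = 0.0117). LY6E, a surface protein that alters virus entry, stood at 0.34 (0.05 to 0.64). RNF213, a large ubiquitin ligase, stood at 0.47 and followed the members between birds with an r of 0.78. LAP3, an aminopeptidase, stood at -0.31 and ZC3HAV1, which binds viral RNA for decay, at -0.23. DDX60, a helicase-family gene named after its values were seen, stood at -0.76 (-2.16 to 0.63), the lowest of the 62. It read 41.1, 385, 15.5, 46.1 and 14.6 in Se-yeast birds, against 53.6 to 128 in control birds. All Se-yeast birds but replicate 2, the highest of all birds, lay below the filter signal of 64.7, and the mean signals were 100 and 103. In all 4 pathway lists no gene passed in either direction, over 62 tested genes.

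**Figure D5:**
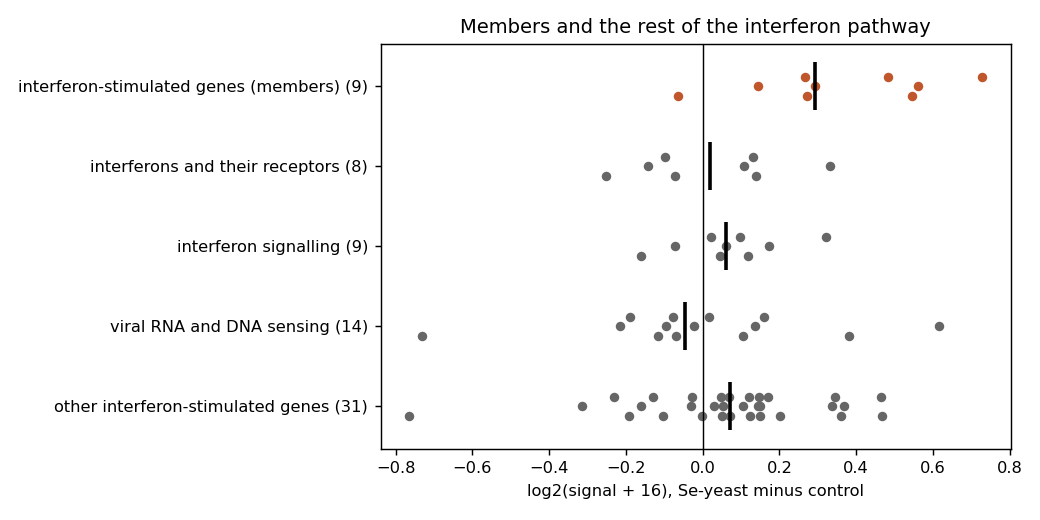
Difference between diets (Se-yeast minus control, log2(signal + 16)) of the 9 members and of the 4 pathway lists, 1 point per gene on its brightest tested probe set, number of genes in parentheses, black bars at the medians. The members' median is 0.29 and those of the other lists lie between -0.05 and 0.07. Members and lists were chosen with earlier results of these data known, so the contrast is a description only.

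Markers of immune cells were measured in the same livers, and none passed between diets. Macrophage markers summed to 95017 to 111381 in Se-yeast and 74164 to 97746 in control birds, with CSF1R, the receptor for macrophage growth factor, at 0.36 and the invariant chain CD74 at 0.32. CSF1R was higher in every Se-yeast bird than in every control bird, as were 0.889% of tested probe sets. T cell markers were higher in 6 of 8 tested genes (median 0.06; CD4 at 0.43, CD28 at 0.24) and B cell markers in 5 of 5 (median 0.19; IGLL1 at 0.59, JCHAIN at 0.20). Thrombocyte markers had a median of 0.37 over 3 genes (ITGB3 at 0.37, F13A1 at 0.41), and the 2 tested heterophil markers, AvBD1 and LECT2, stood at -0.88 and -0.54 with intervals that spanned 0. No marker read 0. Between birds, the 11 macrophage markers ran both with and against the members, with r from -0.87 for the mannose receptor MRC1 to 0.59 for the complement gene C1QA and a median of 0.21; these 2 were named as the ends of the range, after their values were seen.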

How the data were processed

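The authors deposited MAS5 probe set signals per the submitters' processing notes, an intensity on a linear scale; its software version was not given in the sources used. The mean signal between the 2nd and 98th percentiles was about 500.2 on every array, so differences are relative to the rest of the array. Scanner files and detection calls were not used here. Genes were named from probe sets with 1 symbol in the platform annotation (27168 of 38439, without 96 array controls). RefSeq's GRCg7b gene table served only for names and neighbours.

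Signals were turned into log2(signal + 16), filtered at the 40th percentile of the mean over 9 arrays and tested two-sided by limma 3.58.1 under R 4.3.3 (eBayes with an intensity trend after lmFit; Benjamini-Hochberg over 23063 probe sets). A gene is represented by its brightest tested probe set. Correlations and exact permutation tests used Python 3.11.15. Precision is limited by how many arrays there are. The labels call the samples biological replicates and name no batch or pairing.

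The members and gene lists were chosen with earlier results of these data known. Named are all members, the 5 genes with the smallest p of each pathway list, up to 2 of each cell type list, and the 10 genes most like the members. Of the hepatocyte list only AHSG is named. HBA1 and EPB42 are named beside them because the erythrocyte level is made from them, and other names outside this rule are marked in the text. On simulated data with 200 changed probe sets in each of 5 runs, changes of 2 on the log2 scale were found in 87.0%.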

Additional observations from a re-analysis of the deposited data

Results flagged for a closer look

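In the control group the mean log2 level of the 9 genes was 9.19 in control replicate 2, and the nearest other control bird stood at 8.57. The gap between them was 0.869 of the group's whole range, which marks that bird as far from the others. This was 1 of 32 sets of values examined in this way, and chance marks about 1 in 20, so 1 mark is no more than chance would give. The sets also overlap, as the mean level is made from member values that were examined singly too. The difference from the other control birds came with the highest erythrocyte marker level of all 9 birds (12.4, against 10.3 to 11.1 in the other control birds), and the cause was not tested.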

How the results depend on the processing

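Under all 19 alternatives no member probe set and no gene of the 4 pathway lists passed the threshold, and the median difference over the members stayed positive, at 0.25 without control replicate 1 to 0.51 without Se-yeast replicate 5. Of 168 values of single members under alternatives 165 kept their direction. The exceptions were IRF1 at -0.0353 without control replicate 1, EIF2AK2 at 0.0279 without control replicate 2 and MX1 at -0.0034 without Se-yeast replicate 2. With single birds left out, IRF1 ranged from -0.0353 to 0.35, EIF2AK2 from -0.11 to 0.0279 and MX1 from -0.0034 to 0.83. The lowest adjusted p of any member was 0.377, for ZNFX1 without control replicate 2. ZNFX1 was 0.43 when its probe sets were averaged, and RSAD2 was 0.29 with a constant of 64 and 0.61 with one of 1. Without Se-yeast replicate 1, ZNFX1 stood at 0.65, IFI6 at 0.50, OASL at 0.30, MX1 at 0.19 and EIF2AK2 at -0.06. The count of all probe sets past the threshold, 6, was 3 without an intensity trend, with the replicate number as a block and with the erythrocyte level as a covariate (added after seeing the data), and 3 to 7 when single birds were left out. It was 3 without control replicate 3 or without Se-yeast replicates 1, 3 or 4. With the replicate block the members' median was 0.51 and MX1 stood at 0.83 (limma adjusted p = 0.961), as Se-yeast replicate 5 has no partner there. The same-numbered birds' deviations had an r of -0.11 to 0.04, within the -0.20 to 0.19 of differently numbered birds. So few pairs cannot decide whether the numbers pair the birds, and the labels name no pairing. Quantile normalization and centring on array medians moved the median of all probe sets to -0.01 and -0.02, and the members' medians to 0.26 in both. MX1 and RSAD2 could not be given at the 60th percentile filter, nor RSAD2 without Se-yeast replicate 1. MAS5 signals near the filter vary strongly on a log scale, which limits MX1 and RSAD2 most.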
